A study of Arabidopsis thaliana with 36 samples.

Results

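The WRKY transcription factors of Arabidopsis thaliana were followed in rosette leaves of 2 ages over the day. Members were the loci whose name or description in the deposited table contains WRKY and that reached 1 FPKM (fragments scaled to transcript length and library size) in at least 3 of 36 libraries. Of 75 loci so named, 54 passed, among 18729 loci of the table that passed the same filter. Of these 54, 43 reached the limit in at least 3 libraries of each age, 8 only at 35 DAS (days after sowing), 2 only at 21 DAS, and WRKY42 only with the libraries of both ages counted together. The 8 had to be higher at 35 DAS to enter, namely WRKY36, WRKY41, WRKY44, WRKY55, WRKY61, WRKY62, WRKY71 and WRKY75. WRKY13 and WRKY23 entered through 21 DAS. Of the 21 loci that did not pass, 6 were listed at 0 in every library and 18 never reached 1 FPKM, while WRKY12, WRKY31 and WRKY59 reached it in 1 or 2 libraries.

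All plants were of the accession Col-0, with no transgene or treatment, grown at 22 °C under 16 h of white light and 8 h of dark. Polyadenylated RNA came from rosette leaves 3 and 4 at 21 or 35 DAS, at 6 times of day given as ZT, the hours since lights on (ZT1, 5, 9, 13, 17 and 21). With 3 libraries for every age at every time there are 12 groups, and 18 libraries per age. ZT17 and ZT21 lay in the dark. The series title names a shift of daily rhythms in aged plants toward those of the night. The libraries of a group are called batches in the sample titles and biological replicates in the series text, and p-values measure the spread between them.

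WRKY proteins bind DNA through a domain that opens with a conserved heptapeptide and ends in a zinc finger. They recognise the W-box, and many WRKY genes carry W-boxes in their own promoters, so that members regulate each other. The family is known for its part in immune signalling, where mitogen-activated protein kinases and salicylic acid act upstream of it, and in leaf senescence, which some members promote and others delay. Group I proteins carry a pair of WRKY domains, group II proteins carry a single domain with a C2H2 zinc finger, and group III proteins carry a C2HC finger.

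The sequences below show what the members share and how the most changed ones differ. RefSeq coding sequences (TAIR10.1) were available for 53 of the 54 members, and all 53 held the heptapeptide. All 11 group I members held 2 copies and no other member did, and the C2HC spacing was found in all 10 group III members and in 0 of the 41 members of groups I and II. The noncoding locus AT5G35738, described as similar to a WRKY gene, had no coding sequence. The 21 bases that encode the 7 residues are given for the 4 members with the largest rises and the 2 with the largest falls, with the sixth codon in capitals. That codon encodes lysine in WRKY50 and WRKY51 and glutamine in all other members.
WRKY45 (chr3:326932-326952, minus strand): tggaggaagtacggcCAAaaa
WRKY26, first domain (chr5:2204897-2204917, plus strand): tggcgcaaatacgggCAGaag
WRKY26, second domain (chr5:2205345-2205365, plus strand): tggagaaagtatggtCAGaaa
WRKY51 (chr5:25908864-25908884, plus strand): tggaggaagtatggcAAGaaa
WRKY75 (chr5:4150786-4150806, minus strand): tggaggaaatatggcCAAaag
WRKY17 (chr2:10437970-10437990, minus strand): tggagaaagtatggaCAAaaa
WRKY27 (chr5:21411583-21411603, plus strand): tggcgtaaatacggtCAAaaa

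The 250 bases before the annotated start of the most abundant transcript are given for the same 6 genes, because members can act on each other through W-boxes there. Capitals mark the W-box letters TTGACC or TTGACT, or their reverse complements GGTCAA and AGTCAA. None of these motifs overlapped another.
WRKY45 (chr3:327413-327662, minus strand): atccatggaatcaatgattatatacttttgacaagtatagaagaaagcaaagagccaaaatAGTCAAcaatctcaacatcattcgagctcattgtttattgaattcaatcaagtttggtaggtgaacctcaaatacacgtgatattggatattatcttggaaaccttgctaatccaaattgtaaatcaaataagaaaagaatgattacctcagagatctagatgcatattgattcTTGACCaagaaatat
WRKY26 (chr5:2203998-2204247, plus strand): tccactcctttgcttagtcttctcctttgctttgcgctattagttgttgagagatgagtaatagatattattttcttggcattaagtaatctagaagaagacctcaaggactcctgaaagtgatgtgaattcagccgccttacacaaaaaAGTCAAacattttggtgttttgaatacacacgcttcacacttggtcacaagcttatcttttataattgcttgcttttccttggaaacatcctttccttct
WRKY51 (chr5:25908163-25908412, plus strand): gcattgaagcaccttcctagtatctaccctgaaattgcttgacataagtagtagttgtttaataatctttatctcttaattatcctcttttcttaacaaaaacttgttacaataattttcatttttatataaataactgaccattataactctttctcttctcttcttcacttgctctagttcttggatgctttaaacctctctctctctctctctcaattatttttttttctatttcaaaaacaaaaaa
WRKY75 (chr5:4151151-4151400, minus strand): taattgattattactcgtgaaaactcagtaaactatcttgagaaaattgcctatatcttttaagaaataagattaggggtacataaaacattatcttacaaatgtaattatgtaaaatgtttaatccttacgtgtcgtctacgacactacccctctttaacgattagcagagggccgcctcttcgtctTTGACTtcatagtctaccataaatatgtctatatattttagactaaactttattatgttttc
WRKY17 (chr2:10439299-10439548, minus strand): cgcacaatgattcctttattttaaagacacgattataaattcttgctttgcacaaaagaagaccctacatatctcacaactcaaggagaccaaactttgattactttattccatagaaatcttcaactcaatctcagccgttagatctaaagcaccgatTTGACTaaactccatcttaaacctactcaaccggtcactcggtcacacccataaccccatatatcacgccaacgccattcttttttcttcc
WRKY27 (chr5:21410602-21410851, plus strand): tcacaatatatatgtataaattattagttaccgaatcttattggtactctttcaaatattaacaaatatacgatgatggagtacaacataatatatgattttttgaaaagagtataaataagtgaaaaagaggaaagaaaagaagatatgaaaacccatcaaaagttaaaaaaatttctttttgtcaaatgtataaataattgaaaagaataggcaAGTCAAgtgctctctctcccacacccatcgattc
WRKY45 held 2 W-boxes, WRKY26, WRKY75, WRKY17 and WRKY27 held 1 each, and WRKY51 held none in this window. At least 1 was present in 23 of the 54 members (42.6%) and in 29.2% of the windows of all loci tested, and at least 2 in 8 members (14.8%) and in 6.27% of all windows. Risen and fallen members both had them, 19 of 46 and 3 of 6. The highest number was 3, in WRKY30. A match is a description of the letters only.

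Per library, the FPKM of all members summed to between 270 and 649 at 21 DAS (median 481) and to between 587 and 2042 at 35 DAS (median 953). WRKY70, a repressor of senescence that acts in salicylic acid signalling, had the highest mean level at both ages, 85.3 ± 56.4 and 219 ± 161 FPKM (SD, n = 18). WRKY11 (37.7 ± 11.6) and WRKY15 (34.5 ± 25.6) followed at 21 DAS, and WRKY15 (67.7 ± 45.3) and WRKY26 (63.9 ± 31) at 35 DAS. These neighbours in the order differed by less than their spread over the libraries. WRKY26 stood 26th of the 54 at 21 DAS and 3rd at 35 DAS, and WRKY45 moved from 44th to 10th. At 35 DAS WRKY17 stood 34th, after 5th at 21 DAS. In all, 27 members were at 1 FPKM or more in all 36 libraries.

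Libraries of 35 DAS were uneven for this family. In 5 of the 18 (ZT1 replicate 1, ZT13 replicates 1 and 3, ZT17 replicate 3 and ZT21 replicate 1) the mean log2(FPKM + 1) of 12 members linked to salicylic acid was between 4.93 and 5.38. It was between 2.58 and 4.40 in the other 13 libraries of 35 DAS and between 1.62 and 3.35 at 21 DAS. PR1, the classical marker of salicylic acid response, was at 561 to 1723 FPKM in these 5, at 5.70 to 800 FPKM in the other 13, and at 0 to 167 FPKM at 21 DAS. ICS1, which makes salicylic acid, was at 73.3 to 206 FPKM in the 5 and at 4.04 to 71.6 FPKM in the 13. The remaining 42 WRKY members differed less, with a mean of 3.16 to 3.83 in the 5 and 2.62 to 3.60 in the 13. The range within a group of 3 was at least 2 log2 units in 15 members at ZT1, 15 at ZT13 and 13 at ZT17 of 35 DAS, beside 2.39%, 4.05% and 2.64% of all loci. It was that wide in 1 member at ZT9 of 35 DAS and in 0 at any time of 21 DAS. These 5 libraries were chosen by the level of members, so leaving them out lowers the means of 35 DAS by construction. It can also narrow the spread that the p-values rest on, and it leaves 1 library at ZT13 of 35 DAS. A call kept without these libraries is therefore no independent check. Values without them are given below for the results that turn on them.

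**Figure D1:**
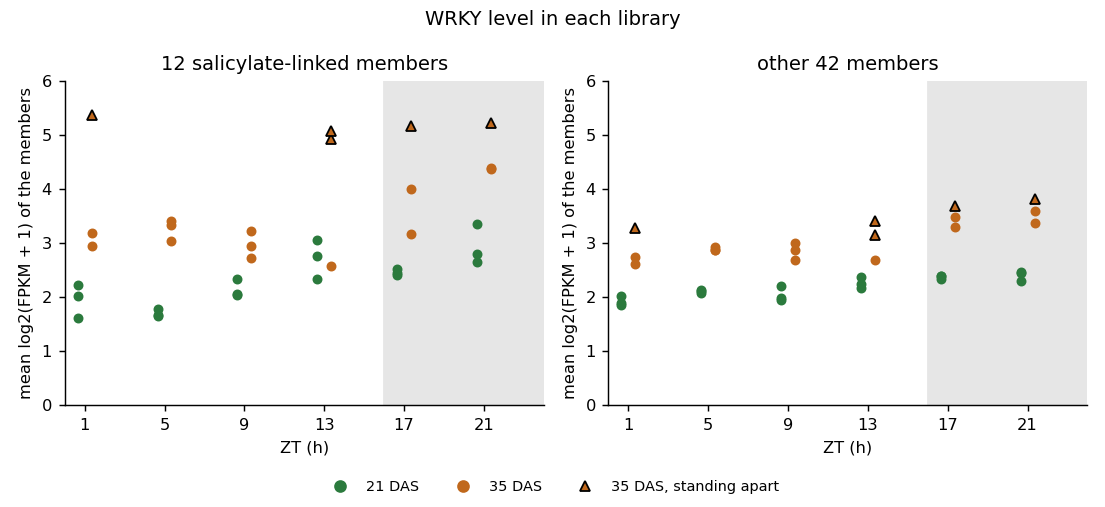
Mean log2(FPKM + 1) of the 12 salicylate-linked members (left) and of the other 42 members (right) in each library by time of day, with 21 DAS in green, 35 DAS in orange and the 5 libraries that stand apart as triangles. Shading marks the dark. On the left the triangles lie between 4.93 and 5.38, above all other libraries, while the other libraries of 35 DAS lie between 2.58 and 4.40.

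Most of the family was higher in the older leaves. With the age effect taken as 35 minus 21 DAS in log2(FPKM + 1), averaged over the 6 times, 38 of the 43 members that entered through both ages rose, 4 fell and WRKY7 was not called (limma, Benjamini-Hochberg adjusted p under 0.05). Over all loci tested, 64.5% were called higher and 23.2% lower. The median effect was 1.29 in these 43 and 0.39 over all loci. The 8 members that entered only through 35 DAS and the 2 that entered only through 21 DAS were called in the direction their entry fixed, which brings the counts over all 54 to 46 higher and 6 lower, with WRKY42 not called and a median of 1.16. A rise of at least 2-fold on this scale was called in 25 of the 43, against 14.5% of all loci, and a fall of that size in 1, WRKY17, against 6.95%. The ages did not overlap over the 18 and 18 libraries in 7 members, WRKY1, WRKY2, WRKY17, WRKY26, WRKY45, WRKY61 and WRKY75, and in 11.3% of all loci. WRKY61 and WRKY75 are among those that entered only through 35 DAS. Without the 5 libraries the median was 0.81 over all 54 members, beside 0.38 over all loci. Rescaling libraries by the median of ratios brought the median of all loci to 0.04. After it 41 of the 54 members were higher and 9 lower, beside 42.6% and 38.3% of all loci. These 54 include the 8 and 2 members whose direction their entry fixed. In leaves sampled whole, fewer cells of a type and less RNA per cell cannot be told apart. The summed FPKM of 6 mesophyll markers was 29437 to 56217 at 21 DAS and 5930 to 27127 at 35 DAS, with 6 of 6 lower. Xylem markers were at 20.9 to 43.3 and 0.334 to 13.9 (3 of 3 lower), epidermis and trichome markers at 406 to 853 and 38.1 to 214 (2 of 3 tested lower) and guard cell markers at 65.5 to 157 and 27.5 to 82.9 (4 of 4 lower). Phloem markers were at 249 to 498 and 238 to 443 (3 of 3 lower). Root markers were at 11.6 to 61 and 12.1 to 34.1, with neither of the 2 tested called. The sum of 5 flower and fruit markers was at most 4.27 in any library. The part of tissue composition in the age effects was not tested.

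**Figure D2:**
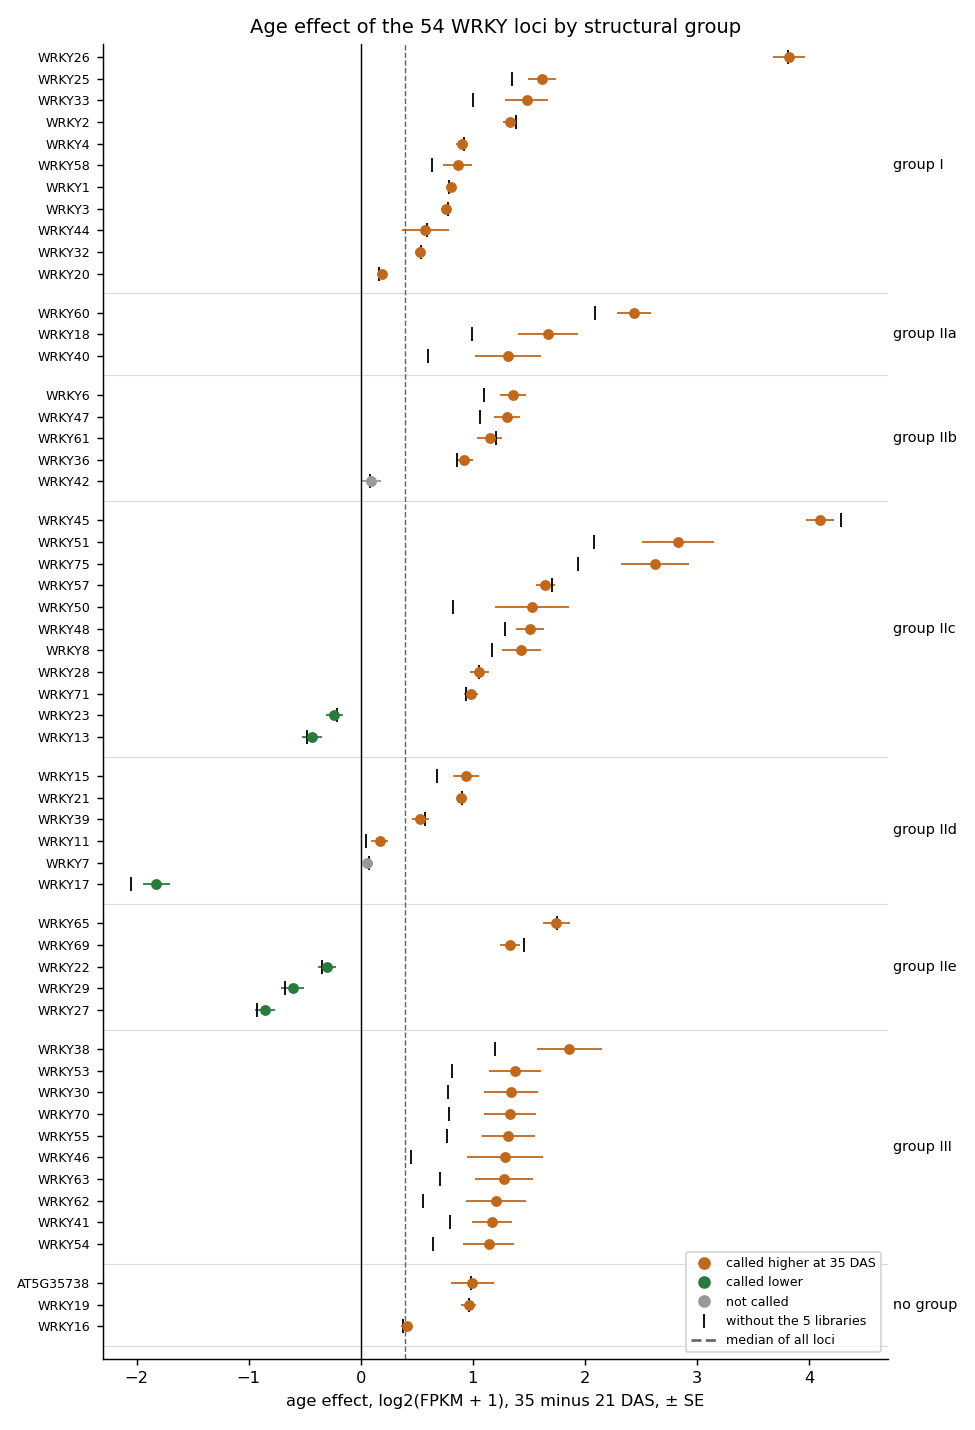
Age effect (35 minus 21 DAS, log2(FPKM + 1)) of each of the 54 members with its SE, arranged by structural group. Orange points were called higher, green lower and grey not called. Black ticks give the value without the 5 libraries, and the dashed line is the median of all loci, 0.39. All group I, IIa and III members lie to the right of 0, while groups IIc, IId and IIe hold the falls.

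By structure, the rises covered 11 of 11 members of group I, 3 of 3 of group IIa, 4 of 5 of group IIb and 10 of 10 of group III. Of these, 1 in group I, 2 in IIb and 3 in III entered only through 35 DAS. The shares of all loci called higher and lower were 64.5% and 23.2%. In group IIc 9 rose and 2 fell, among them 2 that entered only through 35 DAS and both that entered only through 21 DAS. Group IId, whose proteins bind calmodulin, had 4 risen, 1 fallen and 1 not called, with a median of 0.35. After rescaling it had 2 higher and 3 lower, beside 42.6% and 38.3% of all loci, with WRKY7 and WRKY11 lower and WRKY39 (0.14) not called. Group IIe split, with WRKY65 (1.74 ± 0.12, SE) and WRKY69 (1.33 ± 0.09) up, the latter overlapping AT3G58720 on the other strand, and WRKY22, WRKY27 and WRKY29 down. All 10 members of group III rose by at least 2-fold on this scale, between 1.14 and 1.86, beside 14.5% of all loci. The rises of 10 of these 10 were smaller without the 5 libraries, from 0.45 in WRKY46 to 1.2 in WRKY38.

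WRKY45 had the largest rise. Its protein promotes leaf senescence together with gibberellin signalling and activates phosphate uptake. It was at 0.228 to 1.44 FPKM at 21 DAS (median 0.706) and at 7.84 to 67.9 FPKM at 35 DAS (median 29.1), with no overlap. All 6 times were called, with effects from 3.26 ± 0.31 (SE) at ZT13 to 5.18 ± 0.31 at ZT21. The average was 4.10 ± 0.13 (adjusted p = 5.3e-21), and 4.29 ± 0.11 without the 5 libraries. The gene lies on chromosome 3, at 326397 to 327412 of TAIR10.

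WRKY26, known with WRKY25 and WRKY33 for heat tolerance (chromosome 5, 2204248 to 2205811), was at 0.320 to 12.6 FPKM at 21 DAS (median 3.10) and at 20.3 to 120 FPKM at 35 DAS (median 61.6). The ages did not overlap. At ZT5 of 35 DAS its 3 libraries held 103, 109 and 120 FPKM, the highest of the day, against 3.74, 4.42 and 6.59 FPKM at 21 DAS. The average effect was 3.82 ± 0.15 (adjusted p = 3.49e-19), and 3.81 without the 5 libraries. Of its 2 transcripts, the more abundant was at 68.4% of the locus at 21 DAS and 69.2% at 35 DAS.

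WRKY51, which with WRKY50 mediates repression of jasmonate responses (chromosome 5, 25908413 to 25909803), was at 0 to 5.73 FPKM at 21 DAS (median 1.35) and at 2.51 to 92.3 FPKM at 35 DAS (median 11.8). It was uneven at 35 DAS. At ZT1 the libraries held 92.3, 12.5 and 11.1 FPKM, and at ZT13 49.8, 4.96 and 77.0 FPKM, where the high values belong to the libraries that stand apart. The effect was 2.83 ± 0.32 (adjusted p = 3.2e-09), and 2.08 ± 0.20 without them. WRKY50 rose by 1.53 ± 0.33, and by 0.82 ± 0.24 without them.

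WRKY75, a promoter of senescence first known from phosphate starvation (chromosome 5, 4149740 to 4151150), was near 0 at 21 DAS, with 0.442 FPKM as the highest value and a median of 0. At 35 DAS it was at 0.530 to 31.1 FPKM (median 5.19), with no overlap. At ZT21 its 3 libraries held 27, 7.21 and 31.1 FPKM. The difference on the log2(FPKM + 1) scale was 2.62 ± 0.31, and 1.94 ± 0.20 without the 5 libraries. It is given as a description, since WRKY75 entered only through 35 DAS and had to be higher there.

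WRKY60, WRKY38, WRKY65 and WRKY18 had the next largest rises. WRKY60, which acts with WRKY18 and WRKY40 in abscisic acid and defence responses, went from 1.47 to 8.73 FPKM (median 2.31) to 6.12 to 48 FPKM (median 21.5), an effect of 2.44 ± 0.15. The effect of WRKY60 was 2.09 without the 5 libraries. WRKY65 went from 0.0958 to 4.07 FPKM (median 1.52) to 2.55 to 13.5 FPKM (median 7.32). Its effect was between 1.47 and 1.90 at all 6 times and was 1.75 without the 5 libraries. WRKY38, a repressor of basal defence that binds a histone deacetylase, rose by 1.86 ± 0.29 and was called at 3 of the 6 times. WRKY18 rose by 1.67 ± 0.27, and by 0.99 without the 5 libraries. It peaked at ZT17 at both ages, where 114, 91.2 and 88.7 FPKM at 21 DAS stood beside 111, 42.3 and 201 FPKM at 35 DAS, with an age effect there of 0.01 ± 0.65, which was not called.

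**Figure D3:**
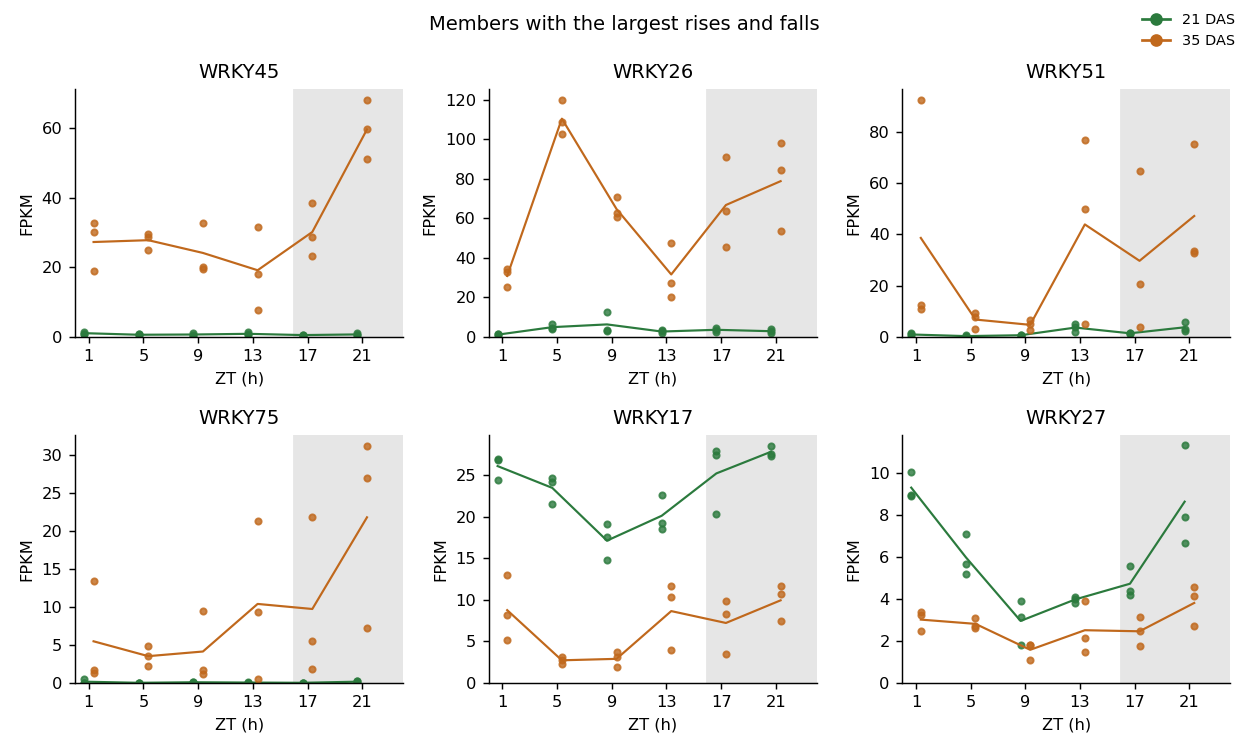
FPKM of the 4 members with the largest rises and the 2 with the largest falls by time of day, with 21 DAS in green and 35 DAS in orange. Points are libraries, lines join the means of 3, and shading marks the dark. WRKY45, WRKY26, WRKY75 and WRKY17 show no overlap between ages, and WRKY51 at 35 DAS ranges from 2.51 to 92.3 FPKM.

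The falls were led by WRKY17, whose protein, like its close relative WRKY11, limits basal resistance to bacteria (chromosome 2, 10437398 to 10439298). It was at 14.7 to 28.6 FPKM at 21 DAS (median 24.3) and at 1.85 to 13.0 FPKM at 35 DAS (median 6.30), with no overlap and a call at all 6 times. The effect was −1.82 ± 0.12 (adjusted p = 4.34e-14), −2.05 without the 5 libraries and −2.20 after rescaling. Its lowest group was ZT5 of 35 DAS, with 2.79, 2.28 and 3.05 FPKM. WRKY11 was at 23.3 to 58 FPKM (median 37.0) and 29.2 to 59.7 FPKM (median 39.7). Its effect of 0.17 ± 0.07 (adjusted p = 0.0356) lost its call when any of 11 single libraries was left out and without the 5 libraries (0.05), and was −0.24 after rescaling.

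WRKY27, known for its part in the symptoms of bacterial wilt (chromosome 5, 21410852 to 21412340), fell at all 6 times. It was at 1.79 to 11.3 FPKM at 21 DAS (median 5.39) and at 1.11 to 4.59 FPKM at 35 DAS (median 2.66), an effect of −0.85 ± 0.09 (adjusted p = 8.73e-10). At ZT1, 10.1, 8.98 and 8.91 FPKM stood against 3.22, 3.37 and 2.46 FPKM. WRKY29 fell by 0.61 ± 0.10 and WRKY22 by 0.30 ± 0.08. Both are known from signalling of bacterial flagellin through mitogen-activated protein kinases. WRKY13, which acts in stem development, fell by 0.44 ± 0.09, from a mean of 1.01 to 0.455 FPKM. WRKY23, an auxin-responsive regulator of root development, fell by 0.24 ± 0.08, with means under 1 FPKM at both ages, and its call was lost without replicate 2 and without replicate 3. WRKY13 and WRKY23 entered only through 21 DAS, which fixed their direction.

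By role, the 8 members known to promote senescence had 6 risen, 1 fallen and 1 not called. Of the 6, WRKY55, WRKY71 and WRKY75 entered only through 35 DAS, and of the 4 that entered through both ages 3 rose. WRKY53, a central senescence regulator, was at 2.58 to 17.0 FPKM at 21 DAS (median 4.95) and at 3.69 to 61.1 FPKM at 35 DAS (median 21.3). It rose by 1.38 ± 0.23, and by 0.82 ± 0.13 without the 5 libraries. WRKY53 overlaps AT4G23800 on the other strand, and strandedness of the counts is not given in the sources used here. WRKY6, which activates a senescence-induced receptor kinase, rose by 1.36 ± 0.12, WRKY55 by 1.32 ± 0.23 and WRKY71 by 0.99 ± 0.06. Without the 5 libraries these values were 1.10, 0.77 and 0.94. WRKY22 was the fallen one. WRKY42 was at 0.358 ± 0.366 and 0.551 ± 0.892 FPKM (SD, n = 18), with an effect of 0.09 ± 0.09.

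All 5 members known to delay senescence rose as well. WRKY57, a target of auxin and jasmonate signalling in senescence, went from 3.22 to 16.4 FPKM (median 7.20) to 13.0 to 41.8 FPKM (median 24.0), an effect of 1.65 ± 0.08 and of 1.71 without the 5 libraries. WRKY25 rose by 1.62 ± 0.13, and by 1.35 without the 5 libraries. WRKY70 rose by 1.33 ± 0.23 and its relative WRKY54 by 1.14 ± 0.23, which were 0.78 ± 0.14 and 0.64 ± 0.15 without the 5 libraries. Among members that entered through both ages, the rises thus covered 3 of 4 promoting and 5 of 5 delaying members, beside the 64.5% of all loci called higher. The difference between the 2 lists was not tested.

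All 12 members linked to salicylic acid rose, with a median of 1.40, and all 12 by at least 2-fold, beside 64.5% and 14.5% of all loci. WRKY62 among them entered only through 35 DAS. The median of the 12 was 0.91 without the 5 libraries. WRKY46 depended on them most. It was at 3.72 to 16.6 FPKM at 21 DAS and at 2.19 to 162 FPKM at 35 DAS, with overlap, and its effect of 1.29 ± 0.34 became 0.45 ± 0.18. WRKY48, WRKY8 and WRKY28 changed less, from 1.51, 1.43 and 1.06 to 1.29, 1.17 and 1.06.

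Of 7 members of pattern-triggered defence, 5 rose and the flagellin-linked WRKY22 and WRKY29 fell. WRKY41 among the risen entered only through 35 DAS. Over all loci 64.5% were called higher and 23.2% lower. WRKY33, which activates camalexin synthesis and overlaps AT2G38480 on the other strand, was at 10.3 to 31.8 FPKM (median 14.5) and 12.3 to 129 FPKM (median 47), an effect of 1.48 ± 0.19. That effect was 1.00 without the 5 libraries. Of 7 repressors of basal resistance, 5 rose, WRKY17 fell and WRKY7 was not called. After rescaling 4 were higher and WRKY7, WRKY11 and WRKY17 lower, beside 42.6% and 38.3% of all loci. WRKY40, which overlaps AT1G80850, rose by 1.31 ± 0.30, and by 0.60 ± 0.14 without the 5 libraries. All 7 members linked to abscisic acid and stress rose, beside 64.5% of all loci. Among them WRKY2 went from 4.74 to 12.8 FPKM to 14.4 to 30.7 FPKM and WRKY1 from 11.9 to 19.2 FPKM to 24.2 to 34.3 FPKM, both without overlap. Their effects were 1.33 ± 0.06 and 0.80 ± 0.04, and 1.38 and 0.79 without the 5 libraries. WRKY1 overlaps AT2G04890 on the other strand.

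Of 5 members linked to phosphate and nutrients, 4 rose, with WRKY75 among them, and WRKY42 was not called. Over all loci 64.5% were called higher. Of 11 listed developmental members, 6 were measured. Only WRKY2 of these could go either way. The direction of WRKY36, WRKY44 and WRKY71 (higher) and of WRKY13 and WRKY23 (lower) was fixed by their entry through a single age. The trichome regulator WRKY44 was higher by 0.57 ± 0.21, and its highest value, 12.3 FPKM in 1 library of 35 DAS ZT17, stood beside a mean of 1.61 ± 2.89 FPKM (SD, n = 18). Its call was lost without replicate 3 and after rescaling. WRKY16 and WRKY19, immune receptors fused to a WRKY domain, rose by 0.41 ± 0.06 and 0.96 ± 0.07. The call of WRKY16 was lost after rescaling, with 0.04.

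Genes that act with the family were tested in the same fit. All 9 tested kinases of the mitogen-activated cascade rose, with MKK9 (2.33 ± 0.09), MPK3 (1.14 ± 0.09) and MKK4 (1.13 ± 0.10) at the top, and 5 of the 9 were called higher after rescaling. Over all loci 64.5% were called higher, and 42.6% after rescaling. Of 21 tested VQ proteins, small cofactors that bind WRKY domains, 16 rose and 2 fell, and after rescaling 14 and 3. VQ10 rose by 2.58 ± 0.28 and SIB1, a partner of WRKY33, by 1.95 ± 0.17. Of 12 tested documented target genes, 9 rose and 1 fell. The camalexin enzyme gene PAD3 rose by 2.41 ± 0.43 and the salicylic acid regulator CBP60G by 2.69 ± 0.24, while the phosphate exporter PHO1, which WRKY6 and WRKY42 repress, fell by 2.00 ± 0.07. UPL5, the ubiquitin ligase that degrades WRKY53, rose by 1.18 ± 0.06.

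At single times, the members called higher and lower were 38 and 3 at ZT1, where 53.2% and 17.3% of all loci were called. They were 30 and 4 at ZT5 (48.3% and 15.2%), 30 and 5 at ZT9 (52.2% and 17.7%) and 33 and 5 at ZT13 (39.7% and 18%). In the dark they were 41 and 3 at ZT17 (46% and 18.5%) and 36 and 4 at ZT21 (53% and 18.4%). The median member effect ran from 0.80 at ZT9 to 1.31 at ZT21. In all, 21 members were called higher at all 6 times and 2, WRKY17 and WRKY27, lower at all 6, beside 25.7% and 8.65% of all loci. Among the 43 members that entered through both ages, 19 were higher and 2 lower at all 6 times. The 21 and the counts at single times run over all members. These include the 8 that entered only through 35 DAS and the 2 only through 21 DAS, whose average direction their entry fixed. Without the 5 libraries, 1 library of 35 DAS is left at ZT13, so no conclusion is drawn from the ZT13 count of that fit. At ZT1 the count of 38 became 23 without replicate 1, where 45.1% of all loci were called higher. At ZT13 the 33 became 17 without replicate 3 (26.2% of all loci). At ZT17 the 41 became 24 without replicate 3 (38.2%).

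Whether the age effect differed between dark and light was tested as the effect at ZT17 and ZT21 minus that at the other 4 times. It was called higher at night in 7 members and lower in 1, where 6.46% and 9.3% of all loci were called. Among the 43 members that entered through both ages the counts were 5 and 1, since WRKY36 and WRKY71 entered only through 35 DAS. The 7 were WRKY60 (0.99 ± 0.33, adjusted p = 0.0369), WRKY45 (0.99 ± 0.27), WRKY71 (0.94 ± 0.13), WRKY6 (0.90 ± 0.25), WRKY36 (0.56 ± 0.16), WRKY7 (0.49 ± 0.12) and WRKY16 (0.40 ± 0.12). The count of higher members was 3 without replicate 1, 3 without replicate 2, 1 without replicate 3, and 13 without the 5 libraries. Over all loci the same fits called 2.08%, 2.58%, 2.69% and 7.51% higher. WRKY7 lost its call without the 5 libraries (0.35). WRKY71, known from shoot branching and flowering, had a call in each of these fits. It entered only through 35 DAS. It was at 0 to 0.261 FPKM at 21 DAS and reached 3.06, 2.92 and 3.10 FPKM at ZT21 of 35 DAS, against 0.359, 0.258 and 0.115 FPKM at ZT5. WRKY45 reached 59.8, 51 and 67.9 FPKM at ZT21 of 35 DAS, above all other libraries of that age. WRKY60 had its smallest effects at ZT5 and ZT9 (1.91 and 1.68) and its largest at ZT17 (3.44 ± 0.38).

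WRKY29 was the member with a lower age effect at night, −0.78 ± 0.22 (adjusted p = 0.0147). At ZT17 of 21 DAS its libraries held 6.52, 6.63 and 4.15 FPKM, the highest of that age, and at 35 DAS 1.77, 0.267 and 1.71 FPKM. At ZT5 the ages overlapped, with 1.83, 1.96 and 2.18 against 1.68, 1.2 and 2.44 FPKM. The call was lost without replicate 2 (−0.40), without replicate 3 (−0.88) and with a pseudocount of 0.1.

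**Figure D4:**
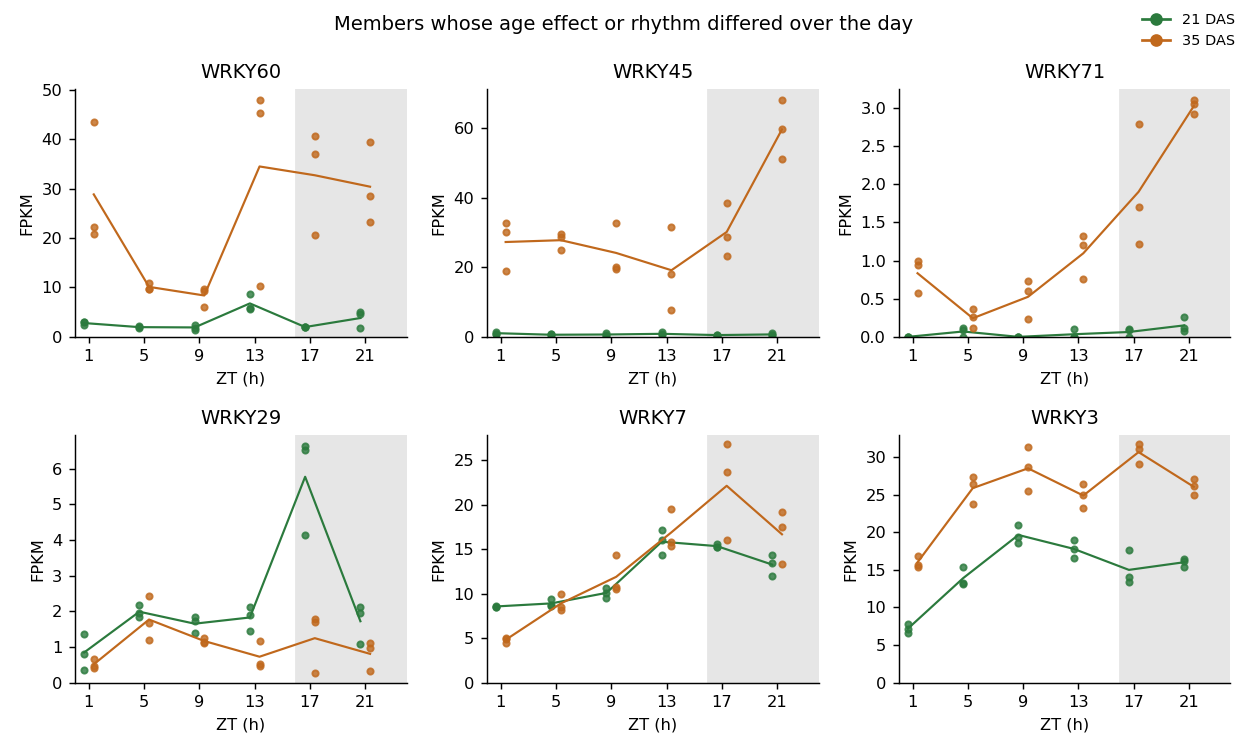
FPKM by time of day of 6 members whose age effect differed between night and day or whose rhythm differed between ages, with 21 DAS in green and 35 DAS in orange. Points are libraries, lines join the means of 3, and shading marks the dark. WRKY45 and WRKY71 at 35 DAS are highest at ZT21, and the ZT17 peak of WRKY29 at 21 DAS, 4.15 to 6.63 FPKM, stands above the ZT17 libraries of 35 DAS, at 0.267 to 1.77 FPKM.

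A daily rhythm, a 24-h cosine fitted to the 6 means with an amplitude of at least 0.5 and a call of its F test, was found in 15 members at 21 DAS and 29 at 35 DAS. Of all loci, 26.8% were rhythmic at 21 DAS and 17.3% at 35 DAS. The member counts depend on the pseudocount, with 27 and 26 at a pseudocount of 0.1, and 6 and 17 at a pseudocount of 5. The shares of all loci moved as well, to 35.3% and 22.4% at 0.1, and to 15.5% and 10.8% at 5. Of the 43 members that entered through both ages, 15 and 24 were rhythmic. Both ages were called in 11 members and neither in 21. A call at a single age does not show a difference between ages, and the test of the difference itself passed in 11 members, where 27.1% of all loci passed. Of these 11, 8 entered through both ages. WRKY33, WRKY42, WRKY45, WRKY54, WRKY55, WRKY57 and WRKY58 lost the rhythm call at 35 DAS without the 5 libraries. That fit leaves 1 library at ZT13 of 35 DAS. In it more members were rhythmic at 21 DAS and fewer at 35 DAS, so the counts of the ages lay closer together. All 12 groups share a single estimate of the spread, so the uneven libraries of 35 DAS also enter the test at 21 DAS. The rhythm difference was called in 3 members without replicate 1, 3 without replicate 2 and 5 without replicate 3. These fits called 10.3%, 13% and 14.3% of all loci. WRKY71 was one of those called in each of these fits. Without the 5 libraries, the rhythm difference was called in more members than the 11 of the main fit.

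Peaks of the rhythmic members lay mostly in the dark. At 21 DAS 10 of the 15 rhythmic members peaked between ZT16 and ZT24, with a median of ZT17.8, and at 35 DAS 26 of 29 did, with a median of ZT18.9. The exceptions at 35 DAS were WRKY7 (ZT15.4), WRKY54 (ZT15.3) and WRKY42 (ZT10.2). Of the 29, 24 entered through both ages. Peak times of all rhythmic loci were not computed, so whether the family differs from them was not tested. WRKY57 had nearly the same peak at both ages, ZT23.6 and ZT23.5, but was not called at 35 DAS without the 5 libraries (amplitude 0.34).

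The largest amplitudes at 21 DAS were those of WRKY18 (1.64 ± 0.27), WRKY54 (1.32 ± 0.23), WRKY25 (1.03 ± 0.13) and WRKY15 (1.02 ± 0.12). WRKY54 was high in late light, at 57.7, 65.9 and 49.4 FPKM at ZT13, and low at ZT1, at 6.67, 9.43 and 2.55 FPKM. At 35 DAS its libraries of ZT13 held 107, 28.1 and 103 FPKM, and its rhythm there was not called without the 5 libraries (0.41). WRKY25 and WRKY15 were highest at ZT17 of both ages. WRKY15, linked to oxidative and salt stress, held 68.6, 95.7 and 80.1 FPKM there at 21 DAS and 132, 106 and 158 FPKM at 35 DAS, and its amplitude was 1.17 at 35 DAS and 1.15 without the 5 libraries.

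At 35 DAS the largest were those of WRKY46 (1.35 ± 0.34), WRKY53 (1.33 ± 0.23), WRKY40 (1.32 ± 0.30) and WRKY51 (1.30 ± 0.32). Without the 5 libraries they were 1.38, 1.22, 0.96 and 1.16. WRKY53 held 59.4, 42.3 and 31.2 FPKM at ZT21 and 3.69, 5.67 and 6.49 FPKM at ZT5. At 21 DAS the same times held 17.0, 16.3 and 15.6 FPKM, and 3.70, 4.64 and 3.67 FPKM. Of the 4 senescence-promoting members that entered through both ages, all 4 were rhythmic at 35 DAS and WRKY53 alone at 21 DAS, beside 17.3% and 26.8% of all loci. All 5 senescence-delaying members were rhythmic at 21 DAS and 4 at 35 DAS. Without the 5 libraries, 5 of the full 8 promoting and 2 of the 5 delaying members were rhythmic at 35 DAS.

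The rhythm difference with the smallest p was that of WRKY71 (adjusted p = 9e-06), followed by WRKY7 (0.00442), WRKY29 (0.00547) and WRKY3 (0.0122). That of WRKY71 describes its course at 35 DAS, the only age through which it entered, since it was near 0 at 21 DAS. WRKY7, a calmodulin-binding member, had an age effect of 0.06 ± 0.06, which was not called, and a larger swing at 35 DAS, 0.82 ± 0.06 against 0.46 ± 0.06. It held 4.5, 5.08 and 4.91 FPKM at ZT1 of 35 DAS, under the 8.67, 8.5 and 8.56 FPKM of 21 DAS, and 26.8, 16.0 and 23.6 FPKM at ZT17, above 15.3, 15.5 and 15.3 FPKM. The rhythm difference of WRKY7 lost its call without replicate 1 and without replicate 3, and that of WRKY29 without replicate 1 and without replicate 2. After rescaling, the age effect of WRKY7 was −0.33 and called lower. WRKY3 had a smaller swing at 35 DAS, 0.26 ± 0.04 against 0.46 ± 0.04. Its rhythm difference lost its call after rescaling, without the 5 libraries and without each replicate in turn. WRKY11 was rhythmic at 21 DAS, with 58, 54.8 and 46.9 FPKM at ZT9 against 25, 23.8 and 23.3 FPKM at ZT1, and not at 35 DAS.

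**Figure D5:**
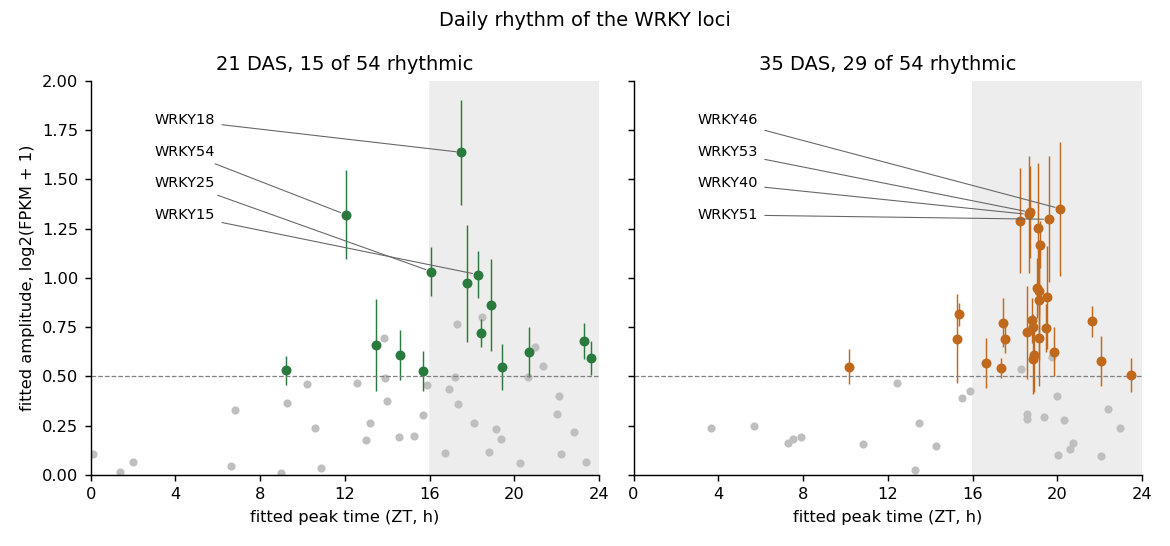
Fitted amplitude, in log2(FPKM + 1), against fitted peak time for each of the 54 members at 21 DAS (left) and 35 DAS (right). Coloured points with SE were called rhythmic, grey ones were not, the dashed line is the amplitude limit of 0.5, shading marks the dark, and the 4 largest amplitudes are named. At 35 DAS 26 of 29 rhythmic members peak between ZT16 and ZT24.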

How the data were processed

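Polyadenylated RNA of 36 leaf libraries was sequenced. The deposited values are FPKM per transcript. Per the submitters' processing notes, the authors used STAR 2.3.0e, HTSeq, edgeR 3.12.1 and TAIR10. How counts became FPKM, strandedness and depth are not given in the sources used here, so no counting interval is given. FPKM sums were 829518 to 952310 per library.

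FPKM were summed per locus, loci with 1 FPKM in at least 3 libraries were kept (18729), and log2(FPKM + 1) was fitted with limma 3.58.1 (R 4.3.3) as 12 group means with a mean-variance trend, adjusted over all loci and called under 0.05. Fold changes on this scale understate those of low genes. The fit was checked on simulated data. Alternatives were rescaling, pseudocounts of 0.1 and 5, other filters, a replicate block, age weights, no trend, the highest transcript alone, left-out replicates and single libraries, and, added after seeing the data, 5 libraries left out.

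Members given in detail were the 8 largest rises and up to 6 falls among called members with a mean of 1 FPKM (5 falls qualified), the 3 highest and lowest night-minus-day values (1 low value was called), the 4 largest amplitudes per age and the 4 smallest p of the rhythm difference. Sequences are for the first 4 rises and 2 falls. Members, lists, tests and rules were chosen with earlier results of these data known. Roles are from general knowledge.

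Titles number replicates as batches. Deviations from group means correlated by 0.00856 on average within a number (−0.473 to 0.582) and by −0.00445 between numbers. All 54 members overlap the same locus in TAIR10.1, from which sequences were read, and coding sequences of 50 lie within the deposited span.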

Additional observations from a re-analysis of the deposited data

Results flagged for a closer look

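Tested as night minus day in log2(FPKM + 1) with limma, the effect of age was unequal in 8 members, by 0.989 in WRKY45, 0.991 in WRKY60, 0.90 in WRKY6, 0.940 in WRKY71, 0.559 in WRKY36, 0.492 in WRKY7, 0.399 in WRKY16 and −0.775 in WRKY29. The daily rhythm differed between ages in 11 members, given as the amplitude of the difference between the fitted curves. It was 0.791 in WRKY60, 0.699 in WRKY71, 0.639 in WRKY29 and 0.636 in WRKY6. It was 0.393 in WRKY11, 0.391 in WRKY23, 0.383 in WRKY22, 0.369 in WRKY7, 0.338 in WRKY36, 0.314 in WRKY2 and 0.218 in WRKY3. Without the 5 libraries of 35 DAS that stand apart, WRKY7 lost its night-minus-day call and WRKY3 and WRKY36 their rhythm difference. Replicates left out in turn, which leaves fewer libraries per group, removed more calls. The night-minus-day calls of WRKY60, WRKY36 and WRKY16 were lost in each of these fits. So were the rhythm differences of WRKY60, WRKY6, WRKY36, WRKY3 and WRKY22. Of all the flagged calls, only those of WRKY71 were kept whichever replicate was left out. WRKY71 was at 0 to 0.261 FPKM at 21 DAS, so its calls describe its course at 35 DAS. WRKY71 and WRKY36 entered only through 35 DAS, and WRKY23 only through 21 DAS.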

How the results depend on the processing

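The 46 rises and 6 falls stayed within 1.5 times under the alternatives run, except that 3 falls were left with a filter of 5 FPKM. Under rescaling WRKY20 (−0.21), WRKY11 (−0.24) and WRKY7 (−0.33) were lower. The replicate block changed no call of the age effect, the night-minus-day effect or the rhythm difference of any member, with 46 and 6 for age. Leaving out replicates 1 to 3 in turn, which leaves 2 libraries per group, gave 44 to 45 rises and 5 to 6 falls. The same gave 1 to 3 members with a higher and 0 to 1 with a lower age effect at night, 17 to 28 rhythmic at 35 DAS and 3 to 5 rhythm differences. By time, it gave 23 to 36 higher at ZT1, 17 to 35 at ZT13 and 24 to 39 at ZT17, and lower members numbered 1 to 3 at ZT5, 2 to 3 at ZT9, 1 to 4 at ZT13 and 2 to 3 at ZT21. By limma, a lower night effect was called in 0 members with a pseudocount of 0.1 (1 at unadjusted p under 0.05) and in 0 with the 5 FPKM filter (0 unadjusted), under which 44 members and not WRKY29 were tested. Rhythmic members at 21 DAS numbered 27 with a pseudocount of 0.1 (35.3% of all loci) and 6 with 5 (15.5%), and at 35 DAS 17 with 5 (10.8%). With the 5 FPKM filter, 3 members were lower at ZT9, 3 at ZT13 and 2 at ZT21, and after rescaling 5 at ZT1 and 7 at ZT5. Without the 5 libraries of 35 DAS, 18 members were higher at ZT13, where 1 library of 35 DAS is left and its spread is taken from the other groups, 13 had a higher age effect at night and 19 a rhythm difference. Apart from the filter, the cause of these changes was not tested. The ZT13 count without the 5 libraries rests on 1 library of 35 DAS, so no conclusion is drawn from it.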

Other observations

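Of the 15 members with more than 1 listed transcript, WRKY41 showed the largest change of proportions. Its first transcript made up 11.9% of the locus at 21 DAS and 75.7% at 35 DAS, but the mean level of that transcript at 21 DAS was 0.0173 FPKM. The first transcript of WRKY55 made up 69.5% and 90.2%. The more abundant transcript made up 72.5% and 66.3% of WRKY20, and 75% and 73.2% of WRKY11, at 21 and 35 DAS. No test was made of these shares.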
